A study of Mus musculus with 6 samples.

Results

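The array carried 6 genes that laboratories commonly use as references for expression measurements, from 4 cellular roles: the cytoskeletal genes Actb and Tuba1b, the protein folding genes Hsp90ab1 and Ppia, the MHC class I light chain gene B2m and the general transcription gene Tbp. They were found by the RefSeq accession of their spots (NM_007393.3, NM_011654.2, NM_008302.3, NM_008907.1, NM_009735.3 and NM_013684.3). Each gene had 1 probe printed in 20 spots per array, so that 6 of the 59709 probes, and 720 spots over all arrays, belong to them. The rule uses accessions and no measured values, but it was drawn up with earlier results of these data known. On GRCm38.p6, RefSeq places Actb at chr5:142903115-142907976, Tuba1b at chr15:98931429-98934390, Hsp90ab1 at chr17:45567778-45573261, Ppia at chr11:6415867-6419817, B2m at chr2:122147687-122153082 and Tbp at chr17:15499888-15517427. Total RNA from primary microglia of newborn C57BL/6 mice, shaken off mixed cerebral glial cultures, was labelled with Cy3 and hybridized in 1 colour to a mouse array of lncRNA and mRNA probes. The resting group, cultured without stimulation, and the IL-4 group, stimulated with 10 ng/ml IL-4 over 24 h, had 3 arrays each, and neither carried a genetic change. How many animals gave each culture, and whether the 3 cultures of a group were independent, is not given in the sources used here, so p-values measure only the spread between these samples, which may be technical.

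Actin and tubulin build the microfilaments and microtubules that microglia rearrange when they move and engulf material. Hsp90 and cyclophilin A help client proteins reach and keep their fold, β2-microglobulin pairs with the MHC class I heavy chain at the cell surface, and the TATA-binding protein takes part in transcription by all nuclear RNA polymerases. Such genes serve as denominators because their transcripts are abundant or steady in many cells, and a reference gene that moved with a treatment would carry its own change into every ratio made with it. IL-4 signals through its receptor and the transcription factor STAT6, and it is the cytokine used here to drive microglia towards the M2 state.

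Upstream sequence was at hand for 4 of the 6 genes and is shown because promoter type is one way in which reference genes differ. The stretches are the 120 bases before the annotated start of each gene, in the gene's orientation, from RefSeq on GRCm38.p6, at chr15:98934391-98934510 (minus strand) for Tuba1b, chr11:6415747-6415866 (plus strand) for Ppia, chr2:122147567-122147686 (plus strand) for B2m and chr17:15499768-15499887 (plus strand) for Tbp. Capitals mark matches on either strand to TATAA (the core of a TATA box), GGGCGG (a GC box) and CCAAT.
Tuba1b: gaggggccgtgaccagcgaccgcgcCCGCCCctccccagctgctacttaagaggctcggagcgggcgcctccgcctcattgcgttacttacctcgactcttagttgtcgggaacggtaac
Ppia: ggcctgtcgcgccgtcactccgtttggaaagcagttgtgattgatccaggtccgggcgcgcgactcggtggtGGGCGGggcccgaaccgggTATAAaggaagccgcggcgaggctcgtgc
B2m: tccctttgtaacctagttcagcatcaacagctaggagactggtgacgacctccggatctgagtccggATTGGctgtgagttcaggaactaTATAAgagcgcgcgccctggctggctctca
Tbp: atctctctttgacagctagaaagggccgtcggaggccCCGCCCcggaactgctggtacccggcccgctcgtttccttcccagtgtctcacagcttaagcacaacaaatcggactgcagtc

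Ppia and B2m each held TATAA on the sense strand close to the start, with its first base 29 and 30 bases upstream, and Tuba1b and Tbp held none in the 250 bases searched. GGGCGG occurred in the same 250 bases of Tuba1b, Ppia and Tbp and not of B2m, and CCAAT, read on the opposite strand, in B2m alone among the 4. The STAT6-type palindrome, TTC and GAA separated by any 4 bases, was in 0 of the 4. Over 32851 promoters of the same length, TATAA was found on either strand in 22.8%, GGGCGG in 32.7%, CCAAT in 33.8% and the STAT6-type palindrome in 5.85%. A match describes the letters and does not show binding, and the absence of a match says only that these letters are not in this window.

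All 720 spots of the 6 genes were well above background, 0 were saturated, and 29 were flagged as outliers by the scanner software and left out of the averages. On IL-4 array 2, 67.7% of the array's negative probes were also well above background, against 0.417% to 11% on the other arrays. There this flag alone does not set a probe apart from the negative ones. Values are given first as the log2 of the processed signal, which is background-subtracted but still carries each array's own scale. Levels of different probes are not compared, since each probe has its own yield of signal. The number of arrays limits the precision.

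Actb, the cytoplasmic β-actin, had log2 signals, in the order of arrays 1, 2 and 3, of 16.43, 16.54 and 17.14 at rest. With IL-4 they were 16.44, 17.11 and 17.52. IL-4 array 3 was the highest, at a signal of 187601, and resting array 1 the lowest, at 88415, and the groups overlapped. Tuba1b, an α-tubulin, had 16.38, 16.23 and 16.72 at rest and 16.32, 17.05 and 16.91 with IL-4. For Tuba1b, IL-4 arrays 2 and 3 were above all resting arrays and IL-4 array 1 was not. Tuba1b belongs to a family of near-identical α-tubulin genes, and Actb and Ppia have many pseudogenes. The probe sequences were not used here, so transcripts of such copies cannot be told apart from those of the named gene.

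Ppia, which encodes cyclophilin A, had 17.04, 16.74 and 17.19 at rest and 16.72, 17.42 and 17.39 with IL-4, the same order of high and low arrays within the IL-4 group as Tuba1b. Hsp90ab1, the constitutive form of cytosolic Hsp90, had 14.06, 12.82 and 13.62 at rest and 13.24, 13.88 and 14.10 with IL-4. Resting array 2 was the lowest for Hsp90ab1, with 8 of its 20 spots flagged there. The spread between arrays was widest for this gene, 2.44-fold from the lowest to the highest.

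B2m, the light chain shared by MHC class I molecules, had a log2 signal of 17.68, 17.73 and 17.69 on resting arrays 1, 2 and 3. With IL-4 it was 17.49, 17.87 and 17.94. The resting arrays lay close together, and the IL-4 arrays lay on both sides of them. B2m spots were among the brightest of the array, with a median rank of 25.5 to 84.5 among its 59994 spots.

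Tbp, the subunit of TFIID that binds the TATA box, had spots with a median rank between 9335 and 10192.5. Its log2 signal was 8.79, 7.59 and 8.21 at rest and 7.62, 8.79 and 8.44 with IL-4. In linear signal these were 444, 192 and 297 against 197, 444 and 347. The negative probes of the array had a median signal of 71.2 on IL-4 array 2 and of 2.67 to 7.37 on the other arrays, and the part of this raised background in the Tbp signal of that array was not tested. The range of Tbp over the 6 arrays was 2.31-fold, against 2.12-fold for Actb, 1.76-fold for Tuba1b, 1.62-fold for Ppia and 1.37-fold for B2m.

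**Figure D1:**
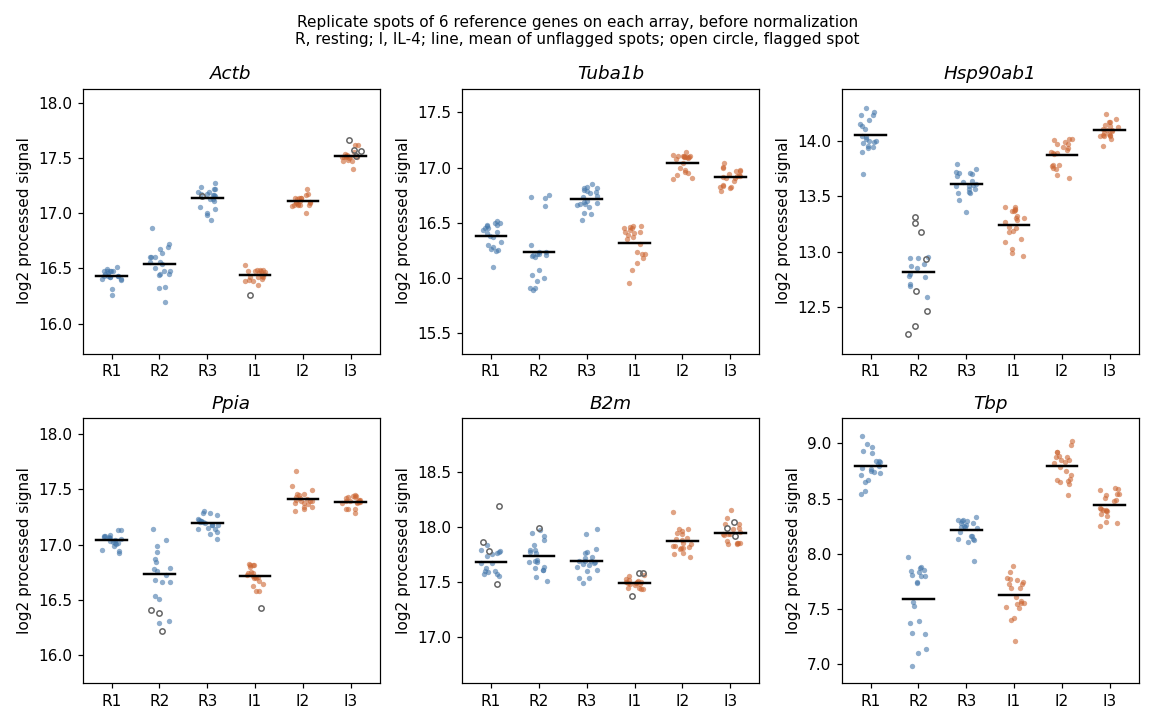
Log2 processed signal before normalization (y axis, 2.4 log2 units in each panel) of every spot of the 6 genes on resting (R1 to R3, blue) and IL-4 (I1 to I3, orange) arrays, with lines at the mean of the unflagged spots and open circles for flagged spots. Some arrays lie apart, with Actb lowest at 16.43 on R1 and highest at 17.52 on I3, and Hsp90ab1 lowest at 12.82 on R2. Others lie together, such as B2m on R1 to R3 at 17.68 to 17.73.

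The 20 spots of a gene give the error of measurement within an array. Over the 36 combinations of gene and array, the SD between unflagged spots was 0.04 to 0.31 log2 units, with a median of 0.10, and the standard error of an array's value was 0.01 to 0.07. Spots of 1 array are not replicates of a condition. The SD between arrays of the same group, which before normalization also carries the overall brightness of each array, was 0.17 for B2m, 0.32 for Tuba1b, 0.32 for Ppia, 0.47 for Actb, 0.55 for Hsp90ab1 and 0.60 for Tbp. Resting array 2 had the highest spot SD in 5 of the 6 genes, Hsp90ab1 being the exception after its flagged spots were left out, and 12 of the 29 flagged spots. Leaving that array out changed no call of the 6 genes.

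The 6 genes went up and down together between some arrays only. From IL-4 array 1 to IL-4 array 2 all 6 rose. From resting array 1 to resting array 2, Actb (16.43 to 16.54) and B2m (17.68 to 17.73) rose, while Tuba1b, Ppia, Hsp90ab1 and Tbp fell. The mean log2 signal of the 6 genes was 15.06, 14.61 and 15.09 at rest and 14.64, 15.35 and 15.38 with IL-4. No single gene had the arrays in the order of this mean. Ordered by this mean, the arrays stood in the same order as by the 99th percentile of all spots, which was 53155, 33870 and 57112 at rest and 34305, 67895 and 79386 with IL-4. By the 75th percentile the order was another one, with resting array 1 and IL-4 array 2 the brightest. Scan 1 took in the 3 resting arrays and IL-4 array 2, while IL-4 arrays 1 and 3 were scanned on their own.

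After quantile normalization, which gives all arrays the same distribution of signals, the spread within groups was smaller for each of the 6 genes. The pooled within-group SD was 0.07 for Tbp, 0.13 for B2m, 0.13 for Ppia, 0.20 for Actb, 0.21 for Tuba1b and 0.27 for Hsp90ab1. The median over all tested probes was 0.69, and 90.3% (Hsp90ab1) to 99.8% (Tbp) of tested probes had a larger SD than these genes. Bright probes varied less in general. Among single-spot probes within 1 log2 unit of the gene's own signal, the share with a larger SD was 44.8% for Actb, 47.6% for Tuba1b, 62.3% for Hsp90ab1, 71.3% for B2m, 72.7% for Ppia and 99.9% for Tbp. The values of the 6 genes average 20 spots and those of these probes are single spots, so the shares are not on an equal footing, and the part of the averaging in the share for Tbp (of 5867 probes) was not tested. Actb and Tuba1b were near the middle of probes of like signal. Among the other genes with replicate spots, the lowest SD was 0.06, below that of Tbp.

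**Figure D2:**
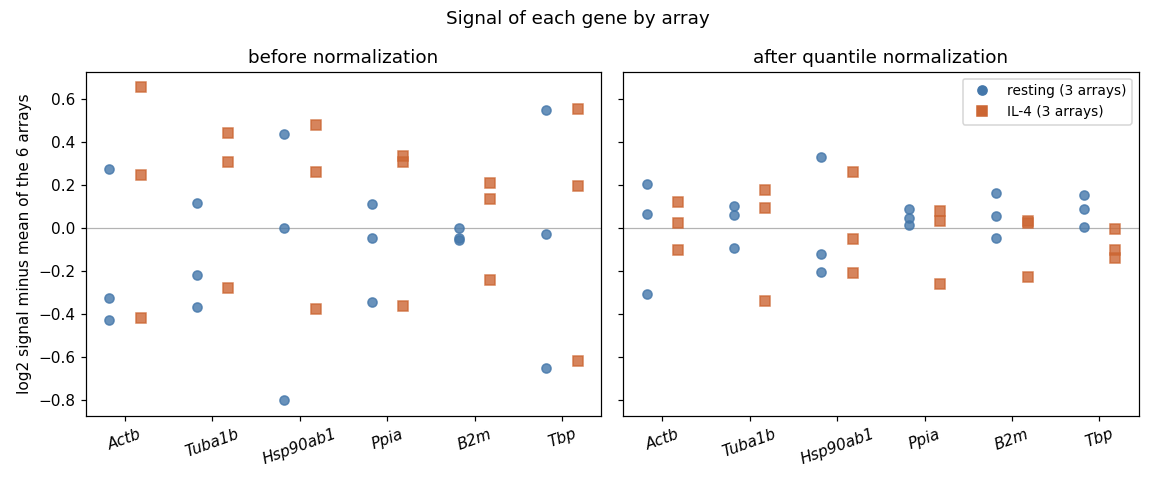
Log2 signal of each gene on each array minus the gene's mean over the 6 arrays (y axis), before (left) and after (right) quantile normalization, for 3 resting (circles) and 3 IL-4 (squares) arrays. The range over arrays was 1.21 log2 units for Tbp and 0.45 for B2m before normalization, and 0.29 and 0.39 after it.

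The comparison of IL-4-stimulated with resting microglia asks whether any of these reference genes changed with IL-4 stimulation. By the study's limits, 2-fold or more with P no higher than 0.05 before adjustment, 0 of the 6 genes were called, against 4.94% of all 32992 tested probes (limma). In single directions these were 0 higher with IL-4 against 1.1% of tested probes, and 0 lower against 3.84%. By P alone 0 of the 6 were called, against 5.25% of tested probes, and after Benjamini-Hochberg adjustment 0 of all tested probes were called. The differences of the 6 genes had a median size of 0.07 log2 units and the largest was 0.17, where the median size over all tested probes was 0.43. Among single-spot probes of like signal the median size was smaller: 0.11 for Ppia and B2m, 0.12 for Actb, 0.14 for Tuba1b, 0.24 for Hsp90ab1 and 0.30 for Tbp. Of those probes, 0% (B2m) to 1.53% (Tbp) were called. The sizes for Ppia and B2m were near the medians at their signal. The median difference itself was -0.07 for the 6 genes and -0.15 for all tested probes. In cultures such as these, fewer cells of a type and less RNA per cell cannot be told apart.

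Among the cytoskeletal genes, Actb had a normalized log2 signal of 16.85 ± 0.26 on resting and 16.87 ± 0.11 on IL-4 arrays (SD, n = 3 each), a difference of 0.03 (standard error 0.35, 95% confidence interval -0.79 to 0.85, limma adjusted p = 0.994). Tuba1b had 16.61 ± 0.10 and 16.56 ± 0.28, a difference of -0.05 (interval -0.87 to 0.77, limma adjusted p = 0.988). The groups overlapped in both genes. On IL-4 array 3 the normalized Tuba1b value, 16.24, was the lowest of the 6 arrays, and on resting array 1 the Actb value, 16.55, was the lowest.

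Among the folding genes, Hsp90ab1 had 13.62 ± 0.29 on resting and 13.62 ± 0.24 on IL-4 arrays, a difference of -0.0014 (interval -0.86 to 0.85, limma adjusted p = 0.999). Ppia had 17.13 ± 0.04 and 17.03 ± 0.18, a difference of -0.10 (interval -0.89 to 0.69, limma adjusted p = 0.970). The normalized Ppia values were 17.17, 17.09 and 17.12 at rest and 17.15, 17.11 and 16.82 with IL-4, so that IL-4 array 3 alone lay outside the resting range.

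B2m had 17.77 ± 0.10 on resting and 17.66 ± 0.15 on IL-4 arrays, a difference of -0.11 (interval -0.90 to 0.67, limma adjusted p = 0.964). Its array values were 17.77, 17.88 and 17.67 against 17.75, 17.74 and 17.48, and the groups overlapped. Of the 20 brightest spots, 9 were B2m on resting array 2 and 0 to 3 on each of the other arrays. Without normalization the difference was 0.07.

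Tbp had the largest difference of the 6, -0.17 (interval -0.94 to 0.60, limma adjusted p = 0.945), with 8.32 ± 0.07 on resting and 8.15 ± 0.07 on IL-4 arrays. Its normalized values were 8.39, 8.24 and 8.33 against 8.09, 8.13 and 8.23, and it was the gene among the 6 whose groups did not overlap, which was also so for 10.9% of all tested probes. Before normalization the groups overlapped in all 6 genes, against 3.11% of tested probes without overlap. With the mean over spots, the gap between the lowest resting and the highest IL-4 array was 0.0105 log2 units. This was less than the spot error of those arrays, which is the standard error of a mean of unnormalized spots. The gap was 0.14 with the median over spots, for which no error was computed, and 0.0117 with spots averaged before normalization. The two-sided exact permutation test gave p = 0.1, the smallest that 3 arrays against 3 can give, and p = 0.4 to 1 for the other genes. The groups of Tbp overlapped with the 75th percentile, without normalization, with normexp and with flagged spots kept.

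**Figure D3:**
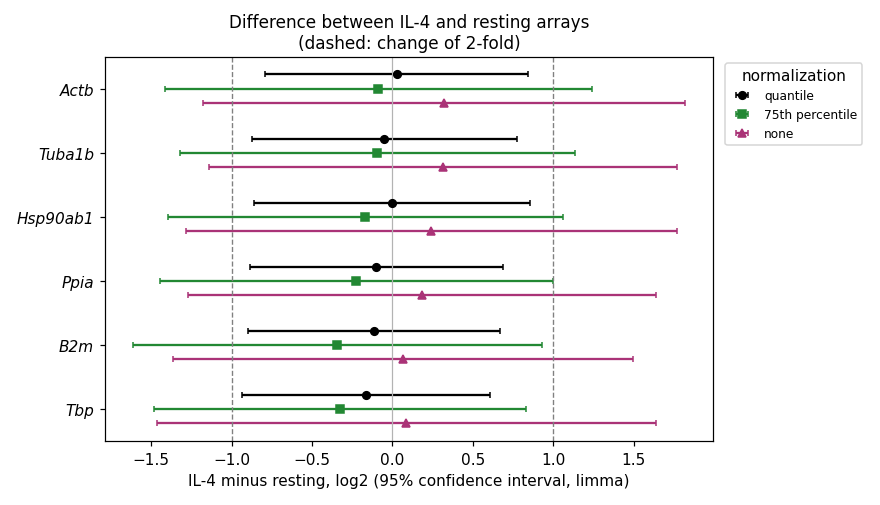
Difference between the means of 3 IL-4 and 3 resting arrays in log2 units (x axis), with 95% confidence intervals from limma, for the 6 genes under quantile normalization (circles), scaling to the 75th percentile (squares) and no normalization between arrays (triangles), with dashed lines at a change of 2-fold. Every interval holds 0, and in the fits drawn the intervals stay between the dashed lines for quantile normalization, with bounds of -0.94 and 0.85, and cross them for the other scalings. Quantile-normalized fits with a replicate or scan term or with 1 array left out, which are not drawn, crossed them too.

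A missed limit does not show that a gene is unchanged, and the intervals give what the data allow. With all 6 arrays, quantile normalization and condition as the only term, they reached from 0.52-fold (Tbp) to 1.81-fold (Hsp90ab1), short of 2-fold in both directions. They also stayed short of 2-fold with normexp (outermost bounds -0.59 and 0.59 in log2 units). The same held when probes had to be well above background on 6 of 6 arrays (-0.77 and 0.71). This was lost in other fits of the same normalized values: the intervals of all 6 genes went past 2-fold with the replicate block (-1.20 to 0.86 for Tbp, for example) and with the scan as a term (-1.38 to 0.96 for Hsp90ab1), and those of 3 or more genes with any 1 array left out. A change of 2-fold is therefore not excluded for any of the 6. limma shares its estimate of spread over all tested probes, most of which varied more than these genes. With scaling to the 75th percentile the differences were -0.09 for Actb, -0.09 for Tuba1b, -0.17 for Hsp90ab1, -0.23 for Ppia, -0.34 for B2m and -0.32 for Tbp, and every interval went past a 2-fold decrease. By the limits above 0 of the 6 were called there, against 3.85% of tested probes, and 0 without normalization, against 1.13%. When limma's spread was instead allowed to follow the signal, the intervals were narrower for 5 genes, such as -0.48 to 0.28 for Ppia, and -0.95 to 0.62 for Tbp. Without normalization all 6 differences were positive, from 0.07 (B2m) to 0.32 (Actb), while the median of all tested probes was 0.32. The sign of a difference therefore depended on the scaling for each of the 6 genes. Within the scan that held both groups, IL-4 array 2 minus the mean of the resting arrays was -0.09 for Actb, 0.07 for Tuba1b, -0.21 for Hsp90ab1, -0.02 for Ppia, -0.03 for B2m and -0.19 for Tbp, with 1 IL-4 array and no test.

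**Figure D4:**
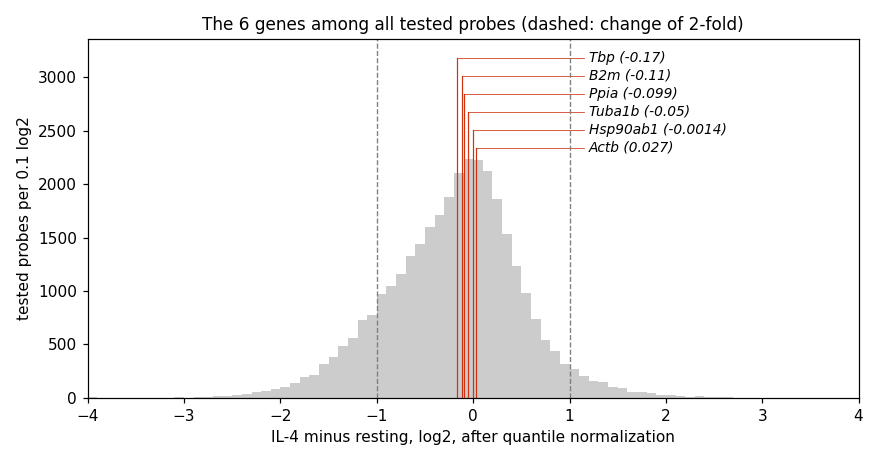
Number of tested probes (y axis, bins of 0.1 log2 units, values beyond 4 in the outermost bins) by the difference between IL-4 and resting arrays after quantile normalization (x axis), with the 6 genes marked by red lines and a change of 2-fold by dashed lines. The genes lie between -0.17 (Tbp) and 0.03 (Actb), near the centre of the 32992 tested probes.

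A ratio of 2 genes on the same array cancels a scale factor shared by all signals of that array, and unnormalized signals were used for it. It does not cancel an array effect that differs between bright and dim signals. The order of the arrays by brightness did differ between the percentiles compared above. The part of such an effect in the ratios of bright to dimmer genes was not tested. Of the 15 pairs, Tuba1b and Ppia kept the steadiest ratio, with an SD of the log2 ratio of 0.10 over the 6 arrays (0.10 within resting, 0.06 within IL-4). The mean log2 ratio of this pair moved from -0.55 at rest to -0.42 with IL-4. This shift of 0.13 was larger than the SD within either group, although the groups overlapped. B2m and Ppia followed with 0.20, Actb and Tuba1b with 0.22, and Hsp90ab1 and Tbp with 0.23. The widest were Actb and Tbp with 0.55, B2m and Tbp with 0.47 and Actb and Hsp90ab1 with 0.47. Among Actb, Tuba1b, Ppia and B2m the SDs were 0.10 to 0.34, and between these 4 genes and Hsp90ab1 or Tbp 0.31 to 0.55.

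Averaged over the 5 ratios of each gene, the SD was 0.24 for Ppia, 0.27 for Tuba1b, 0.34 for B2m, 0.37 for Actb, 0.37 for Hsp90ab1 and 0.40 for Tbp. Tbp, which had the smallest spread after quantile normalization, had the widest one by ratios over all 6 arrays, but not without resting array 1. On resting array 1, relative to the mean of the other 5 genes, Tbp stood at -7.52 against -8.42 to -7.87 on the other arrays, and Hsp90ab1 at -1.21 against -2.15 to -1.54. For Tbp the next highest was IL-4 array 2, at -7.87. Resting array 1 and IL-4 array 2 were also the brightest by the lower of the percentiles compared above. Hsp90ab1 stood at -1.77 on IL-4 array 2, which was not the next highest for that gene. Without resting array 1 the mean SD was 0.33 for B2m, then the widest, and 0.27 for Tbp. On resting array 2, B2m stood at 3.75 relative to the other 5 genes, against 3.02 to 3.42 on the other arrays. Without resting array 2 the mean SD fell to 0.25 for B2m and 0.31 for Hsp90ab1, and rose to 0.38 for Actb. For Tbp, over the arrays left out in turn, it ranged from 0.27 to 0.44, while that of Ppia ranged from 0.18 to 0.26.

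**Figure D5:**
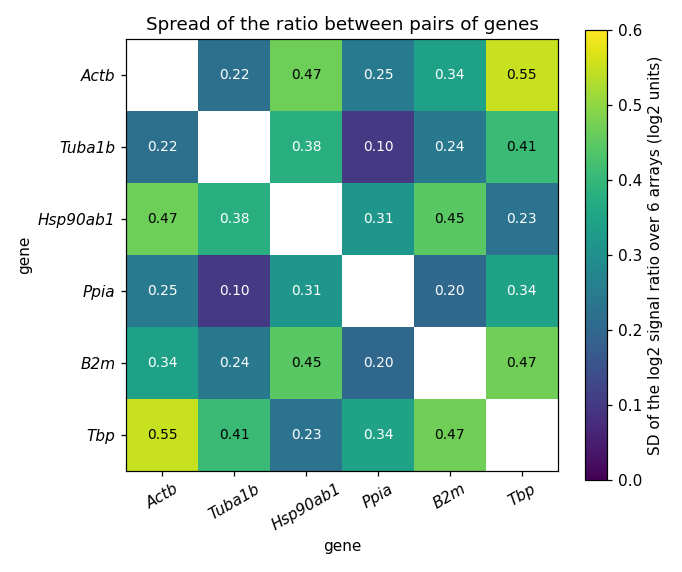
SD over the 6 arrays of the log2 ratio of unnormalized signals for each of the 15 pairs of genes (colour and number, in log2 units, both axes list the genes). The smallest value is 0.10 for Tuba1b and Ppia and the largest is 0.55 for Actb and Tbp.

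Between the conditions, the mean log2 ratio of a pair moved by 0.0068 to 0.25, and the resting and IL-4 arrays overlapped in 15 of the 15 pairs. The largest shift was in the ratio of Actb to B2m. Relative to the mean of the other 5 genes, the shift was 0.14 for Actb, 0.13 for Tuba1b, 0.05 for Hsp90ab1, -0.02 for Ppia, -0.16 for B2m and -0.14 for Tbp, and the exact permutation p was between 0.5 and 0.8 for all 6. The ratios were wider among resting than among IL-4 arrays in 13 pairs, and in 8 pairs when resting array 1 was left out. This difference in spread was not tested.

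The array repeats 9 other genes in at least 10 spots in the same way, of which 8 passed the filter on dim probes. None of these 8 was called either, but their differences were larger, from -0.63 to 0.86 with a median size of 0.39, against 0.07 for the 6 genes described here. Their within-group SD was 0.06 to 0.80 with a median of 0.33. The sets were not matched by signal, and the difference between both sets was not tested. Of the genes listed for the same roles, 2 of 20 cytoskeletal, 2 of 14 folding, 1 of 11 MHC class I and 1 of 11 transcription genes were named on the array by an accession, and these are the 6 genes themselves. None of the 10 microglial, 4 astrocyte, 4 oligodendrocyte, 4 neuronal and 4 IL-4 response markers listed was among the 116 probes that RefSeq names. Neither the cell type on the labels nor the M2 response to IL-4 was therefore checked here.

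By the pattern over the 6 arrays, the named probes most like each gene, of 68 candidates without a missing value, were H2ac18 (Pearson's r = 0.89) and 4930526I15Rik (0.81) for Actb, and Gm21953 (0.95) and Tcstv1 (0.94) for Tuba1b. They were Gm20823 (0.79) and Ccdc82 (0.72) for Hsp90ab1, and Tcstv1 (0.92) and G6pd2 (0.86) for Ppia. For B2m they were E330014E10Rik (0.95) and Hmgcs1 (0.94), and for Tbp Tagap (0.97) and Taf1a (0.81). These are the highest of 68 values over 6 arrays that share scale and background, and they are given as a description only. Pearson's r takes no account of the size of a change, so a like pattern did not mean a difference of like size. Tagap differed by -0.92 log2 units between the groups and Tbp, in the same direction, by -0.17.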

How the data were processed

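RNA of 6 samples, 3 resting and 3 IL-4-stimulated, was measured on 1-colour arrays. Sample titles gave each group and its numbering. The scanner files that the authors deposited (Feature Extraction 10.7.3.1) hold a processed signal, an intensity with background subtracted. Spot flags were used as deposited. The authors also deposited log2 values, quantile normalized in GeneSpring GX, for 14055 probes. It holds 0 of the 6 genes and was used only for the count over all probes.

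Control spots, negative probes and flagged spots were left out. Signals were put on a log2 scale and quantile normalized, after the study's methods, before spots of a probe were averaged. Probes well above background on at least 3 arrays entered the limma fit (version 3.58.1, in R 4.3.3) of condition alone. Fits were tested on simulated data. The 6 genes, the gene lists and the tests were chosen with earlier results of these data known. Named genes were the 6 and the 2 RefSeq-named probes most like each. RefSeq names and promoters (GRCm38.p6) were matched by accession or symbol; the array was designed on mm9, and no coordinates were carried over. Same-numbered arrays deviated from their group means with correlations of -0.22, 0.14 and -0.09 across probes. Alternatives covered scaling, background correction, dim probes, flags, averaging of spots, arrays left out, replicate and scan terms and the test. The normexp correction used the median spot signal, which the files hold. Figures were drawn with matplotlib (version 3.10.9).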

Additional observations from a re-analysis of the deposited data

How the results depend on the processing

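In every setting that tested them, 0 of the 6 genes were called (the authors' table holds none of them, and the values within a scan and relative to the other 5 carry no call), and the smallest adjusted p of any of them was 0.847, for Hsp90ab1 with the scan as a term. The count over all tested probes, 1631 of 32992, became 373 without normalization, 270 with normexp, 490 of 18872 when 6 of 6 arrays had to be well above background, 3120 of 59702 with no filter, 8862 with the scan as a term (which sets IL-4 array 2 alone against the resting arrays), 836 with the methods' t-test and 752 of the 14055 probes of the authors' table, and 824 (without resting array 3) to 4005 (without IL-4 array 1) with 1 array left out. Where the number tested differs, the counts cannot be set against each other directly. With the replicate block it was 1600. The numbers share no deviation that pairs the arrays, and the block changed no call of the 6 genes. By the methods' t-test, which does not share its spread across probes, Tbp alone of the 6 had an unadjusted P of at most 0.05, at a difference of -0.17, short of 2-fold, and an adjusted p of 0.915.

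Differences this small changed sign easily. For Actb the sign turned to -0.088 with the 75th percentile and to -0.091 with the scan as a term or within the scan of both groups. Tuba1b turned to 0.32 without normalization, 0.0022 with normexp, 0.066 with the scan as a term or within it, and 0.13 relative to the other 5 genes, a setting chosen after seeing the data. Hsp90ab1 turned to 0.24 without normalization, 0.020 with flagged spots kept, with the median over spots and with spots averaged before normalization, and 0.047 relative to the other 5. Without normalization Ppia, B2m and Tbp turned to 0.19, 0.068 and 0.086. With 1 array left out, the ranges were -0.12 to 0.14 for Actb, -0.15 to 0.11 for Tuba1b, -0.13 to 0.16 for Hsp90ab1, -0.16 to 0.0055 for Ppia, -0.17 to -0.03 for B2m and -0.21 to -0.13 for Tbp. The cause was not tested.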
